A study of Mus musculus with 8 samples.

Results

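The comparison described here set SCLCs (Sertoli cell-like cells), sorted at day 12 of the culture, against tcESCs, the unmodified embryonic stem cell (ESC) line at the start of the study. It held 4 of the 8 libraries of the series, namely the 2 titled SCLC and the 2 titled tcESC, and the 2 libraries of tc;Sf1ESCs were placed against both groups. tcESCs are XY C57BL/6 cells with the tesco-cfp transgene, in which an enhancer of Sox9 used in the testis drives a cyan fluorescent protein, and were kept in N2B27 medium with 2iLIF, that is PD0325901, CHIR99021 and LIF. tc;Sf1ESCs (genotype XY;tesco-cfp;Sf1) are 1 stable tcESC clone, selected with G418, that expresses an Sf1 transgene, and were kept in the same medium. They are also called the transgenic ESCs below. SCLCs have the same genotype and came from tc;Sf1ESCs by culture with CHIR99021 and TTNPB and then with CHIR99021, BMP7 and FGF9, after which the CFP-positive cells were collected. SCLCs therefore differed from tcESCs by the transgene and the cloning as well as by the culture, and between these groups alone their parts cannot be told apart. The change from tcESCs to tc;Sf1ESCs and that from tc;Sf1ESCs to SCLCs divide them, but each shares libraries with the first comparison, so the 3 are not independent.

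Of the 46078 gene IDs counted, 16505 had a mean count above 10 over the 4 libraries and were tested, and 29573 did not. A gene present only in SCLCs or only in tcESCs could pass this filter through that group. Genes were also read in 37 lists of known function, in which 820 of the 912 genes found passed the filter and 92 did not. The level of a gene is given in CPM, the count scaled to library size after TMM normalization, which is not scaled to gene length, so levels are compared between libraries and not between genes. A gene was called where it changed by more than 2-fold with an adjusted p-value under 0.05 in edgeR's quasi-likelihood test. Log2 fold changes are those of SCLCs over tcESCs unless another pair is named, and follow with ± their standard error. Nothing in the labels says that the 2 libraries of a group came from separate cultures, so the p-values measure the spread between these libraries, which may be technical.

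Naive ESCs hold a network of transcription factors (Pou5f1, Sox2, Nanog, Esrrb and others) that keeps them able to make any tissue of the embryo. Sertoli cells, the supporting cells of the testis, arise from the coelomic epithelium of the gonad, where SF1 (the product of Nr5a1), GATA4 and WT1 act upstream of SOX9, which directs the testis fate and the expression of Amh. The same GATA factors also act in the extraembryonic endoderm, the earliest epithelium to leave the inner cell mass, which forms the visceral endoderm (absorbing and secreting, with apolipoproteins and endocytic receptors) and the parietal endoderm (laying down laminin and type IV collagen).

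Each library held between 25411033 and 30680191 counts on genes, so that 3 counts correspond to between 0.0978 and 0.118 CPM. This limit covers counting error only. The 2 libraries of each group differed beyond the noise of sampling. Chi-square divided by its degrees of freedom was 3.94 for tcESCs, 1.42 for tc;Sf1ESCs and 30.4 for SCLCs, the pair that varied most. Reads aligned to several places took 20.5% to 27.5% of the reads in each library's table and were not counted on genes, which makes the levels of near-identical genes uncertain. Whole chromosomes stood apart between the lines. The median log2 fold change of tc;Sf1ESCs over tcESCs was 0.48 on chromosome 8, -0.46 on chromosome 16 and -0.32 on chromosome 6, against 0 over all genes, and that of SCLCs over tcESCs was 0.55, -0.51 and -0.27 on the same chromosomes, against 0.052. Over the 7 genes tested on chromosome Y these medians were 2.25 in tc;Sf1ESCs and 1.55 in SCLCs, and 6 of the 7 passed the test as higher in SCLCs. Genes on these chromosomes are named below with their chromosome where they lie between or beyond the groups, and the part of these shifts in their values was not tested.

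Between SCLCs and tcESCs, 7093 genes were called, which is 43.0% of the genes tested. In SCLCs 4096 genes were higher (24.8%) and 2997 were lower (18.2%), the shares against which the counts of each list below are to be read. The increases were also the larger ones. Of the genes called higher, 2263 exceeded a 4-fold, 902 a 16-fold and 430 a 64-fold change, whereas of those called lower 1223, 282 and 72 did. Without each of the 6 libraries in turn the number of genes called ran from 6514 to 7358. The 2 SCLC libraries lay wholly above or wholly below the 2 tcESC libraries in 14167 genes, 85.8% of those tested, so a gap between the groups by itself says little about one gene. Processed pseudogenes, of which 652 were tested, were called lower in 22.7% and higher in 7.67%, and their reads can be shared with the parent genes.

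**Figure D1:**
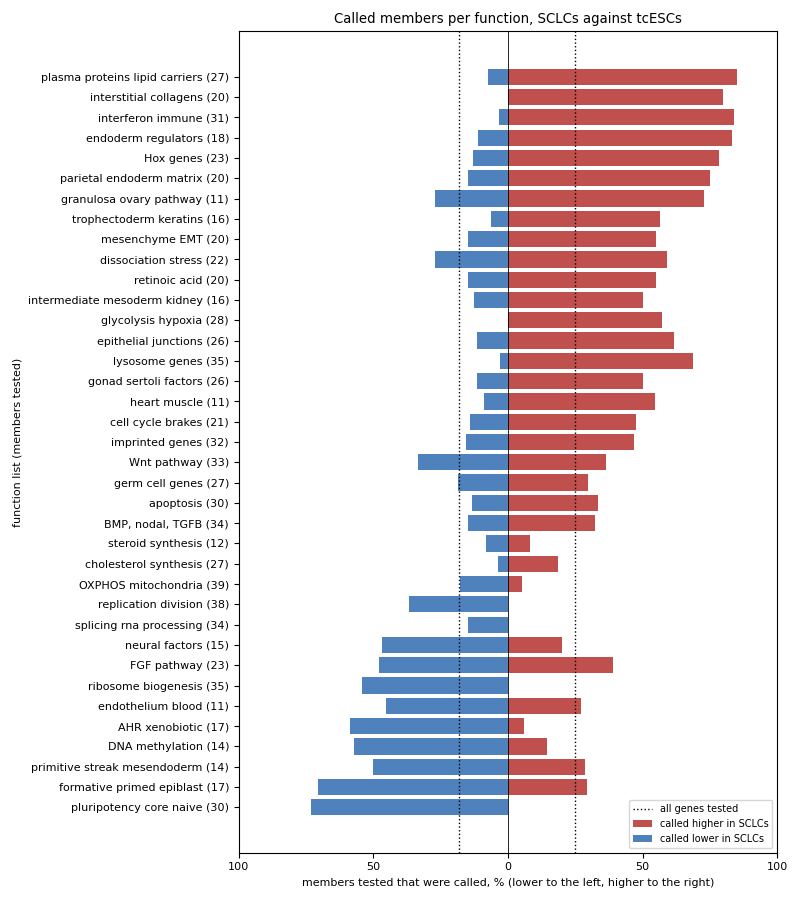
Share of the members tested in each of 37 function lists that were called higher (right, red) or lower (left, blue) in SCLCs against tcESCs, in percent. The number of members tested follows each name and the dotted lines are the shares over all genes tested, 24.8% and 18.2%. The lists are ordered by their median log2 fold change, with plasma proteins, interstitial collagens and interferon genes at the top and the pluripotency network at the bottom.

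Called genes whose groups did not overlap and whose mean level was 1 CPM or more were ranked by the difference of mean log2 CPM. A prior count of 2 was added, which holds down changes from near 0, so this order can differ from that of the fold changes given here. The 10 largest increases were those of Habp2, Cubn, Pth1r, Srgn, Usp18, Ctsh, Myl3, Igfbp1, Hkdc1 and Ifit1. Habp2, a plasma serine protease, measured 0.0389 and 0 CPM in tcESCs, 0.0386 and 0 in the transgenic ESCs and 310.2 and 364 in SCLCs, at least 3164-fold higher in SCLCs than in tcESCs. Cubn (cubilin), the endocytic receptor of visceral endoderm and kidney tubule, measured 0.467 and 0.514 CPM in tcESCs, 0.502 and 0.3999 in the transgenic ESCs and 1068 and 2137 in SCLCs (log2 fold change 11.66 ± 0.50, adjusted p = 1.52e-06). Pth1r, the parathyroid hormone receptor and an early marker of parietal endoderm, measured 0.234 and 0.161 CPM in tcESCs, 0.193 and 0.109 in the transgenic ESCs and 512 and 642 in SCLCs (log2 fold change 11.51 ± 0.22, adjusted p = 9.28e-08). In these 3 genes no ESC library reached 1 CPM, and both SCLC libraries were above all of them. Srgn, the proteoglycan core of secretory granules, was the only one of the 10 in which tc;Sf1ESCs were called higher than tcESCs, with 0.195 and 0.482 CPM in tcESCs, 2.28 and 2.14 in the transgenic ESCs and 716 and 743 in SCLCs.

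The 10 largest decreases were those of Accsl, Olig2, Cyp1a1, Jam2, Cd80, Cth, Trh, H2-M6-ps, Trpm1 and Gpr83. Jam2, a junctional adhesion molecule on chromosome 16, fell from 604 and 601 CPM in tcESCs to 5.61 and 2.61 CPM in SCLCs (log2 fold change -7.21 ± 0.27, adjusted p = 8.81e-07). Trh, which encodes the precursor of thyrotropin-releasing hormone, measured 451 and 499 CPM in tcESCs, 654 and 667 in the transgenic ESCs and 3.67 and 2.96 in SCLCs (log2 fold change -7.17 ± 0.12, adjusted p = 5.8e-08). Cth, the enzyme that makes cysteine from cystathionine, measured 267 and 289 CPM in tcESCs, 95.6 and 91.2 in the transgenic ESCs and 2.02 and 1.53 in SCLCs (log2 fold change -7.29 ± 0.12, adjusted p = 6.2e-08). All 4 ESC libraries were above both SCLC libraries in each of these 3 genes, and Cth had already fallen in tc;Sf1ESCs (transgenic ESCs over tcESCs, log2 fold change -1.57 ± 0.085, adjusted p = 6.96e-05).

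The sample name was set against markers of cell types. Of 9 Sertoli cell markers, Gata4, Nr5a1, Sox9 and Cldn11 rose. Nr5a1 is also expressed by the transgene, which tcESCs lack. The summed level of all 9, called or not, went from 16.2 and 18.5 CPM in tcESCs to 483 and 476 CPM in SCLCs. Gata4 alone made up 420.4 and 438 CPM of the sum in SCLCs. Cldn11 was not called by DESeq2. Wt1, Amh and Dmrt1 were not called, although Dmrt1 was called higher without SCLC replicate 2, Dhh had 5 counts or fewer in both SCLC libraries and Fshr had 0. All 9 visceral endoderm markers rose, from a sum of 9.15 and 7.64 CPM to 1766 and 3223 CPM, and all 5 parietal endoderm markers rose, from 808.5 and 792 CPM to 18120.0 and 18690.0 CPM. All 5 markers of kidney or intermediate mesoderm rose too, to sums of 8.10 and 8.26 CPM. Of the trophectoderm markers 4 of 5 rose, to sums of 40.8 and 87.4 CPM. Tal1, Hbb-y and Ptprc, of blood, and Neurog2, of neurons, had at most 3 counts in either SCLC library. In the same marker sets Cdh5, of endothelium, and Pax6, of the neural set, were called higher, and Pecam1, Sox1 and Tubb3 were called lower. Of the granulosa markers Wnt4 and Fst rose and Rspo1 fell. All the endoderm markers thus rose, as did 4 of the 9 Sertoli markers, among them Nr5a1, which the transgene expresses. SCLC is used below as the name of the samples and not of a cell type. In such pooled cells fewer cells of a type and less RNA per cell cannot be told apart.

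Among 26 tested genes of the gonad and Sertoli list 13 rose and 3 fell, with a median log2 fold change of 1.29 against 0.052 over all genes. Gata4, the GATA factor of gonad and endoderm, measured 1.83 and 2.31 CPM in tcESCs, 6.602 and 6.69 in the transgenic ESCs and 420.4 and 438 in SCLCs (log2 fold change 7.68 ± 0.11, adjusted p = 4.6e-08). Nr5a1, which the transgene also expresses, measured 0.0389 and 0 CPM in tcESCs, 2.01 and 1.09 in the transgenic ESCs and 13.02 and 18.6 in SCLCs, and was at least 149-fold higher in SCLCs than in tcESCs. Sox9, the factor of Sertoli fate, measured 0.0778 and 0.257 CPM in tcESCs, 0.2703 and 0 in the transgenic ESCs and 7.87 and 4.53 in SCLCs (log2 fold change 5.11 ± 0.70, adjusted p = 0.000433). Both SCLC libraries exceeded all ESC libraries in the 3 genes, and tc;Sf1ESCs stood part way for Gata4 and Nr5a1 and among the tcESC libraries for Sox9. Wt1, the zinc-finger factor of the coelomic epithelium, measured 0.584 and 0.6099 CPM in tcESCs, 0.347 and 0.473 in the transgenic ESCs and 2.29 and 0.802 in SCLCs, with the SCLC libraries above all others but apart from each other, and was not called (log2 fold change 1.35 ± 0.53, adjusted p = 0.0501). It was called without SCLC replicate 2, with RLE size factors, with no filter on low counts and with all 8 libraries in the fit.

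Amh, the Sertoli hormone that removes the Müllerian duct, measured 0.584 and 0.578 CPM in tcESCs, 0.656 and 0.872 in the transgenic ESCs and 0.382 and 0.767 in SCLCs, and the groups overlapped. Inha, the alpha subunit of the inhibins, rose (log2 fold change 5.59 ± 0.29, adjusted p = 3.41e-06), from 0.195 and 0.161 CPM to 8.02 and 9.41 CPM. Emx2, a homeobox gene of the urogenital epithelium, had 0 counts in all 4 ESC libraries and 10.2 and 14.99 CPM in SCLCs, which is at least 118-fold. Zfpm2, the GATA4 partner FOG2, fell (log2 fold change -3.37 ± 0.32, adjusted p = 6.85e-05), from 2.65 and 2.34 CPM to 0.191 and 0.279 CPM, and so did Six4 and Cbx2, which act upstream of Sry. Inhbb, the beta B subunit of inhibin and activin, stood apart, with 13.3 and 15.2 CPM in tcESCs, 0.811 and 1.13 in the transgenic ESCs and 6.49 and 13.8 in SCLCs. tc;Sf1ESCs lay below both other groups (transgenic ESCs over tcESCs, log2 fold change -3.87 ± 0.41, adjusted p = 0.000775), and SCLCs and tcESCs overlapped, although without SCLC replicate 2 Inhbb was called lower in SCLCs.

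All 11 tested genes of the granulosa and ovary list were called, 8 higher and 3 lower (Nr0b1, Axin2 and Rspo1). The summed level of the list's 15 members was 229 and 238 CPM in tcESCs and 240 and 239 CPM in SCLCs. Runx1, a factor of early granulosa cells on chromosome 16, measured 3.46 and 4.21 CPM in tcESCs, 0.347 and 0.218 in the transgenic ESCs and 75.7 and 89.97 in SCLCs (log2 fold change 4.42 ± 0.15, adjusted p = 6.65e-07), and tc;Sf1ESCs lay on the far side of tcESCs (transgenic ESCs over tcESCs, log2 fold change -3.76 ± 0.27, adjusted p = 0.000209). Bmp2 rose (log2 fold change 5.14 ± 0.21, adjusted p = 1.3e-06), as did Wnt4 (log2 fold change 3.91 ± 0.38, adjusted p = 7.24e-05) and Fst (log2 fold change 1.45 ± 0.14, adjusted p = 5.86e-05), the activin antagonist follistatin. Nr0b1 (DAX1), which opposes SF1 and is also highly expressed in ESCs, fell from 117 and 128 CPM to 3.44 and 2.75 CPM (log2 fold change -5.31 ± 0.12, adjusted p = 1.36e-07). Foxl2, which defines granulosa cells, and the receptors Esr1 and Esr2 did not pass the filter. In the steroid synthesis list 2 of 12 genes were called, 1 higher and 1 lower, and without tcESC replicate 2 there was 1, while without SCLC replicate 1 there were 3, all higher. Cyp11a1, the side-chain cleavage enzyme that begins steroid synthesis, measured 0.311 and 0.0321 CPM in tcESCs, 0.232 and 0.145 in the transgenic ESCs and 0.191 and 1.29 in SCLCs, with SCLC replicate 2 above the other libraries, and was not called (log2 fold change 2.19 ± 1.05, adjusted p = 0.0975) except without SCLC replicate 1 or with no filter on low counts. Cyp17a1 rose to 1.34 and 1.95 CPM, at least 15.4-fold, and Star, the carrier of cholesterol into mitochondria (chromosome 8), stood apart with 7.12 and 7.25 CPM in tcESCs, 17.5 and 16.2 in the transgenic ESCs and 5.65 and 8.12 in SCLCs. Hsd3b1 and Hsd3b6, steroid dehydrogenases, had at most 2 counts in either SCLC library.

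In the list of intermediate mesoderm and kidney 8 of 16 genes rose and 2 fell, or 4 without SCLC replicate 1. Pax2, a paired-box factor of the kidney, reached 2.94 and 3.38 CPM, at least 29.7-fold, and Pax8, Lhx1 and Osr1 rose to mean levels under 2 CPM. Osr1 was not called by DESeq2. Eya1, a transcriptional coactivator of kidney development, stood on the far side in tc;Sf1ESCs, with 18.9 and 18.9 CPM in tcESCs, 38.3 and 41.6 in the transgenic ESCs and 1.64 and 2.54 in SCLCs (log2 fold change -3.16 ± 0.18, adjusted p = 5.53e-06).

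Of 23 Hox genes tested 18 rose and 3 fell, all at low levels, with a sum over the 38 members of 34.7 and 35.8 CPM in tcESCs and 69.2 and 59.8 CPM in SCLCs. The genes that rose came from all the Hox clusters. Hoxa10 measured 0.117 and 0.161 CPM in tcESCs, 0.656 and 0.582 in the transgenic ESCs and 4.89 and 4.22 in SCLCs (log2 fold change 4.97 ± 0.32, adjusted p = 9.72e-06), and Hoxc9 rose to 5.04 and 4.46 CPM (log2 fold change 5.02 ± 0.47, adjusted p = 5.97e-05). Those that fell, Hoxc12, Hoxc13 and Hoxd13, lie at the 5′ ends of clusters, though Hoxa13 and Hoxb13, also at such ends, rose. Hoxc12 went from 5.96 and 6.68 CPM to 0.115 and 0.244 CPM (log2 fold change -5.08 ± 0.29, adjusted p = 5.29e-06). In tc;Sf1ESCs the list's median log2 fold change over tcESCs was 0.82 against 0, and both of their libraries lay between the groups in 12 of the 21 called genes, against 36% of all genes called higher and 44% of those called lower, and outside them on the tcESC side in 2. Hoxa10 and Hoxc10 stood part way, and Hoxa9, Hoxb13, Hoxc6 and Hoxd9 were already at the SCLC side. Each of these 6 calls between the ESC lines was lost without tcESC replicate 1 and without tc;Sf1ESC replicate 1, those of Hoxa9, Hoxc10 and Hoxd9 also without either other ESC library, that of Hoxc6 also without tcESC replicate 2, that of Hoxb13 also without tc;Sf1ESC replicate 2, those of Hoxa9, Hoxb13 and Hoxc10 in DESeq2 and that of Hoxc10 with the replicate block, and that of Hoxb13 between SCLCs and tcESCs was lost without tcESC replicate 1, as was that of Hoxa13 without tcESC replicate 1 or 2. Hoxa9, Hoxa10 and Hoxa13 lie on chromosome 6.

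None of the 30 genes of the pluripotency list rose and 22 fell, with a median log2 fold change of -2.39. Nanog measured 929.7 and 964 CPM in tcESCs, 702 and 693 in the transgenic ESCs and 70.2 and 21.6 in SCLCs (log2 fold change -4.37 ± 0.49, adjusted p = 0.000145). Pou5f1, which encodes OCT4, measured 545 and 599.9 CPM in tcESCs, 497 and 508 in the transgenic ESCs and 121 and 78.9 in SCLCs (log2 fold change -2.52 ± 0.18, adjusted p = 1.75e-05). Esrrb measured 905 and 888 CPM in tcESCs, 791 and 814 in the transgenic ESCs and 88.9 and 45.4 in SCLCs (log2 fold change -3.74 ± 0.28, adjusted p = 2.17e-05). All ESC libraries were above the SCLC libraries for the 3 genes, but none of them fell to the limit of 3 counts, and SCLC replicate 1 kept more transcript than replicate 2 of each. Klf4 was not called, with 487 and 475 CPM in tcESCs, 301 and 297 in the transgenic ESCs and 277 and 279 in SCLCs. In tc;Sf1ESCs the median of the list was -0.11, and both libraries lay between the groups in 15 of the 22 genes that fell, against 1320 of the 2997 genes called lower over all. Lefty2, a secreted inhibitor of Nodal, stood on the far side, with 32.2 and 35.3 CPM in tcESCs, 252 and 257 in the transgenic ESCs and 5.73 and 3.24 in SCLCs (transgenic ESCs over tcESCs, log2 fold change 2.91 ± 0.17, adjusted p = 9.9e-05), and Tcl1 did so too, but its call between the ESC lines was lost without tcESC replicate 1 or 2 and that between SCLCs and tcESCs without SCLC replicate 2.

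Of the 17 genes of the formative and primed epiblast tested, 12 fell and 5 rose. Nodal fell (log2 fold change -4.52 ± 0.30, adjusted p = 9.97e-06), Etv4 stood part way with 66.8 and 72.1 CPM in tcESCs, 34.01 and 32.5 in the transgenic ESCs and 18.7 and 11.3 in SCLCs, and Foxd3 and Sox3 fell as well. Grhl2, an epithelial factor, rose (log2 fold change 2.47 ± 0.21, adjusted p = 3.92e-05), and tc;Sf1ESCs were part way. The middle step of Etv4 was lost without any 1 of the ESC libraries, its last step without SCLC replicate 2, and the middle step of Grhl2 without tcESC replicate 1, tcESC replicate 2 or tc;Sf1ESC replicate 2. Among 14 genes of the primitive streak 4 rose (28.6%, near the 24.8% over all genes) and 7 fell. T (brachyury), the factor of nascent mesoderm, measured 1.44 and 1.51 CPM in tcESCs, 8.76 and 10.4 in the transgenic ESCs and 0.0764 and 0.244 in SCLCs, with tc;Sf1ESCs highest, and was lower in SCLCs than in tcESCs (log2 fold change -3.14 ± 0.41, adjusted p = 0.000355). Eomes was already at the SCLC level in tc;Sf1ESCs, with 30.6 and 29.02 CPM in tcESCs, 8.92 and 8.11 in the transgenic ESCs and 6.15 and 8.75 in SCLCs. Of 15 neural genes 7 fell and 3 rose, or 5 without SCLC replicate 1. Olig2, on chromosome 16, measured 89.8 and 91.3 CPM in tcESCs, 9.46 and 8.98 in the transgenic ESCs and 0.42 and 0.105 in SCLCs, and tc;Sf1ESCs stood part way (transgenic ESCs over tcESCs, log2 fold change -3.30 ± 0.16, adjusted p = 5.22e-05).

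Endoderm regulators rose as a group, 15 of 18 with 2 lower (1 with DESeq2) and a median of 3.81. Gata6, the factor that sets primitive endoderm apart, measured 0.195 and 0.803 CPM in tcESCs, 1.24 and 1.64 in the transgenic ESCs and 183 and 191 in SCLCs (log2 fold change 8.47 ± 0.28, adjusted p = 5.58e-07). Sox17, an HMG-box factor of endoderm, measured 1.99 and 1.89 CPM in tcESCs, 1.24 and 1.05 in the transgenic ESCs and 169 and 161 in SCLCs (log2 fold change 6.41 ± 0.1, adjusted p = 5.08e-08). Foxa2 measured 0.195 and 0.449 CPM in tcESCs, 0.502 and 0.109 in the transgenic ESCs and 61.8 and 51.98 in SCLCs (log2 fold change 7.40 ± 0.35, adjusted p = 2.58e-06). SCLC libraries exceeded every ESC library in all 3 genes. In tc;Sf1ESCs, Gata4, Gata6 and Hnf4a stood part way. Hnf4a, which drives apolipoprotein genes, measured 3.35 and 2.63 CPM in tcESCs, 8.996 and 9.63 in the transgenic ESCs and 67.7 and 95.8 in SCLCs (transgenic ESCs over tcESCs, log2 fold change 1.65 ± 0.22, adjusted p = 0.00193), and the call of Gata6 between the ESC lines was lost in DESeq2 and without tcESC replicate 1 or either tc;Sf1ESC library. Sox7 went the other way, with 1.71 and 1.61 CPM in tcESCs, 0.154 and 0.291 in the transgenic ESCs and 54.1 and 57.9 in SCLCs, so that tc;Sf1ESCs lay on the far side of tcESCs (transgenic ESCs over tcESCs, log2 fold change -2.86 ± 0.27, adjusted p = 0.000531).

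The list of plasma proteins and lipid carriers had the highest median, 6.78, with 23 of 27 genes higher and 2 lower. Apoa1, of high-density lipoprotein, had at most 1 count in each ESC library and 37.5 and 69.8 CPM in SCLCs, at least 503-fold. Afp (alpha-fetoprotein) measured 0 and 0.193 CPM in tcESCs, 0.0386 and 0 in the transgenic ESCs and 23.1 and 48.8 in SCLCs (log2 fold change 8.36 ± 0.68, adjusted p = 3.01e-05). Lrp2 (megalin), Amn (amnionless) and Dab2, which act with cubilin in endocytosis, rose with it. Amn measured 1.25 and 0.7704 CPM in tcESCs, 0.425 and 0.3999 in the transgenic ESCs and 239.5 and 395 in SCLCs (log2 fold change 8.32 ± 0.34, adjusted p = 1.32e-06), and Dab2 measured 9.19 and 9.79 CPM in tcESCs, 1.62 and 2.11 in the transgenic ESCs and 802 and 1289 in SCLCs (log2 fold change 6.78 ± 0.26, adjusted p = 1.07e-06). Alb, albumin, had 1 count in each SCLC library. SCLC replicate 2 was above replicate 1 in Apoa1, Afp, Amn, Dab2, Cubn and Lrp2. In tc;Sf1ESCs 1 gene of the list was called higher and 1 lower. Their libraries lay between the groups in 4 of the 25 called genes, against 36% over all genes called higher. They lay outside on the tcESC side in 6 and overlapped with a group in 15. For genes with almost no counts in the ESC libraries, such as Apoa1, a strict order can hardly arise. Dab2 was on the far side (transgenic ESCs over tcESCs, log2 fold change -2.34 ± 0.32, adjusted p = 0.00213).

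In the list of parietal endoderm and its matrix 15 of 20 genes rose and 3 fell, with a median of 2.68. The list also holds genes outside the basement membrane, such as Pth1r, Plat, Snai1 and Vim. Col4a1, a chain of type IV collagen (chromosome 8), measured 29.8 and 26.6 CPM in tcESCs, 29.1 and 30.5 in the transgenic ESCs and 19407 and 19048 in SCLCs (log2 fold change 9.41 ± 0.11, adjusted p = 4.6e-08). Lama1 measured 170.5 and 166 CPM in tcESCs, 198 and 198 in the transgenic ESCs and 5349 and 5087 in SCLCs (log2 fold change 4.95 ± 0.073, adjusted p = 4.67e-08). Lamb1 measured 99.6 and 94.6 CPM in tcESCs, 31.97 and 31.3 in the transgenic ESCs and 4853 and 4825 in SCLCs (log2 fold change 5.64 ± 0.075, adjusted p = 4.6e-08). The SCLC replicates were close to each other for these genes, and the summed level of the list was 58920.0 and 58480.0 CPM in SCLCs against 5123 and 4860.0 CPM in tcESCs. Serpinh1, the collagen chaperone HSP47, stood part way in tc;Sf1ESCs, with 44.5 and 47.96 CPM in tcESCs, 162 and 158 in the transgenic ESCs and 2479 and 2497 in SCLCs (transgenic ESCs over tcESCs, log2 fold change 1.79 ± 0.067, adjusted p = 2.68e-05). Lamb1 stood on the far side (transgenic ESCs over tcESCs, log2 fold change -1.62 ± 0.066, adjusted p = 3.34e-05), and so did Vim (vimentin), which fell in SCLCs, with 137 and 144 CPM in tcESCs, 516 and 525 in the transgenic ESCs and 56.8 and 45.7 in SCLCs. Snai1, which drives the epithelial to mesenchymal transition, and Plat (chromosome 8), a plasminogen activator of parietal endoderm, rose to 76.2 and 51.8 CPM and 107 and 123 CPM.

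The interstitial collagens and their partners rose in 16 of 20 cases and fell in none, with a median of 6.29. Col3a1 measured 0.0778 and 0.0642 CPM in tcESCs, 0.0772 and 0.109 in the transgenic ESCs and 146 and 78.9 in SCLCs, at least 1054-fold. Col1a1 measured 2.14 and 2.76 CPM in tcESCs, 1.27 and 1.27 in the transgenic ESCs and 204 and 87.95 in SCLCs (log2 fold change 5.88 ± 0.46, adjusted p = 2.39e-05). SCLC replicate 1 was above replicate 2 in both, the opposite of the order in the plasma protein genes, and the sums of the list were 1188 and 777 CPM in the SCLC libraries. In the mesenchyme list 11 of 20 rose and 3 fell. Pdgfra, a receptor of mesenchyme and of primitive endoderm, measured 1.91 and 1.64 CPM in tcESCs, 2.63 and 3.599 in the transgenic ESCs and 744 and 884 in SCLCs (log2 fold change 8.85 ± 0.18, adjusted p = 1.04e-07), and Prrx1 and Cdh11, of mesenchyme, reached 2.71 and 2.37 CPM and 14.97 and 8.02 CPM. Fn1 (fibronectin) fell (log2 fold change -2.30 ± 0.11, adjusted p = 2.62e-06), as did Cdh2 (N-cadherin) (log2 fold change -3.01 ± 0.14, adjusted p = 1.96e-06).

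**Figure D2:**
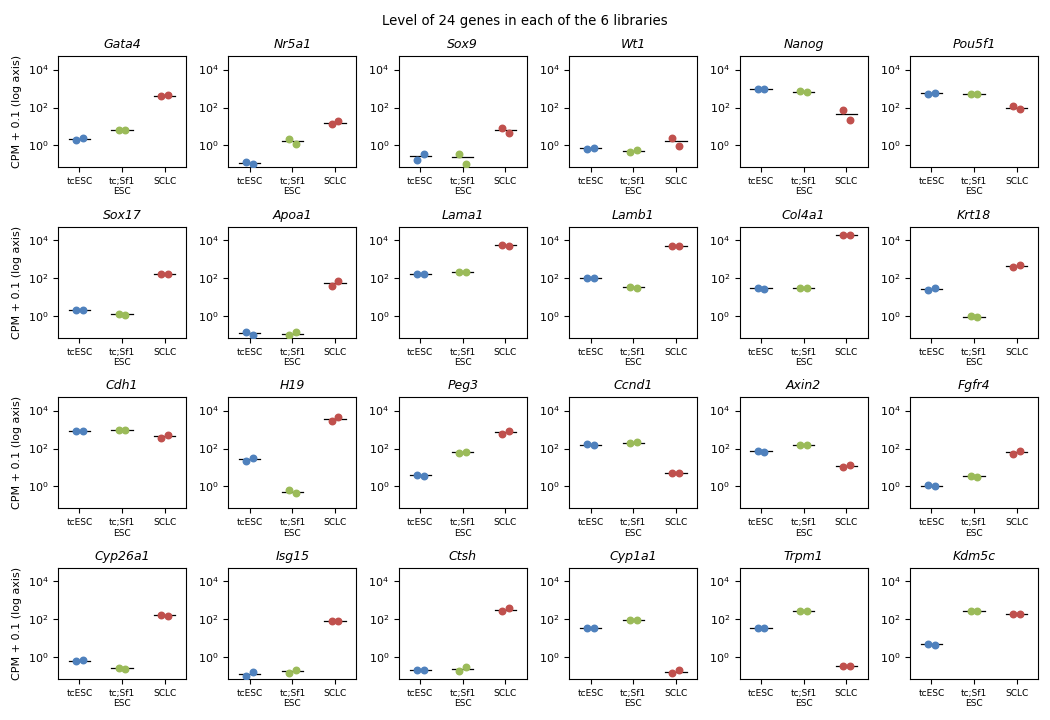
Level of 24 genes in the 6 libraries, as CPM + 0.1 on a log axis, with a point for each library and a line at the mean of each group of 2. Gata4, Peg3 and Fgfr4 rise in 2 steps, Lamb1, Krt18, H19 and Cyp26a1 dip in tc;Sf1ESCs and rise in SCLCs, Axin2, Cyp1a1 and Trpm1 do the reverse, and Kdm5c in tc;Sf1ESCs is already near the level in SCLCs.

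Trophectoderm genes and keratins had the lowest median of the 37 lists in tc;Sf1ESCs. Of 16 tested genes 9 rose and 1 fell in SCLCs, with a median of 2.35. In tc;Sf1ESCs 9 fell and 1 rose, against 5.66% lower and 5.39% higher over all genes, with a median of -1.88. Krt18 and Krt8, the keratin pair of simple epithelia, both dipped. Krt18 measured 22.1 and 30.01 CPM in tcESCs, 0.888 and 0.763 in the transgenic ESCs and 379 and 473 in SCLCs, a fall (transgenic ESCs over tcESCs, log2 fold change -4.98 ± 0.26, adjusted p = 6.12e-05) before a rise (log2 fold change 4.03 ± 0.17, adjusted p = 1.5e-06). Krt8 measured 25.5 and 32.6 CPM in tcESCs, 7.41 and 7.63 in the transgenic ESCs and 344 and 428 in SCLCs (log2 fold change 3.73 ± 0.15, adjusted p = 1.27e-06). Krt19 measured 1.32 and 1.44 CPM in tcESCs, 0.193 and 0.182 in the transgenic ESCs and 140.3 and 174 in SCLCs (log2 fold change 6.82 ± 0.16, adjusted p = 1.48e-07). The libraries of the 3 groups did not overlap for these keratins, and tc;Sf1ESCs were lowest. Of the 10 called genes of the list none had both tc;Sf1ESC libraries between the groups and 7 had them beyond tcESCs. Tpbpa, of trophoblast, had 0 counts in the ESC libraries and rose to 35.4 and 75.1 CPM, at least 519-fold. Tfap2a stood apart the other way, with 1.67 and 1.61 CPM in tcESCs, 8.34 and 8.29 in the transgenic ESCs and 1.34 and 2.02 in SCLCs. Gata3 also dipped, but that call was lost without any 1 of the 4 ESC libraries.

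Among epithelial junction genes 16 of 26 rose and 3 fell. Cldn6, a claudin of early embryonic epithelia, measured 13.7 and 14.4 CPM in tcESCs, 12.3 and 13.4 in the transgenic ESCs and 301 and 352 in SCLCs (log2 fold change 4.53 ± 0.11, adjusted p = 1.62e-07). Epcam was already at the SCLC side, with 65.7 and 64.5 CPM in tcESCs, 178 and 177 in the transgenic ESCs and 138 and 197 in SCLCs, and Cdh1 (E-cadherin), on chromosome 8, fell to 345 and 518 CPM (log2 fold change -1.01 ± 0.17, adjusted p = 0.00118), a call lost without tcESC replicate 1 or SCLC replicate 1. In the heart list 6 of 11 rose and 1 fell, mostly at low levels (sums of 60.9 and 41.9 CPM in SCLCs), and in the list of endothelium and blood 3 rose and 5 fell of 11, or 3 and 3 without tcESC replicate 1 and 2 and 3 without tcESC replicate 2. Cdh5 (VE-cadherin), on chromosome 8, measured 0.0778 and 0.0321 CPM in tcESCs, 0.0772 and 0.109 in the transgenic ESCs and 29.9 and 71.2 in SCLCs, at least 475-fold higher, whereas Pecam1 fell from 115 and 113 CPM to 71.3 and 23.01 CPM in SCLCs, a call that was lost in DESeq2 and without tcESC replicate 1, tcESC replicate 2 or SCLC replicate 2.

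Germ cell genes also stood apart in tc;Sf1ESCs. In SCLCs 8 of 27 rose and 5 fell, close to the shares over all genes. In tc;Sf1ESCs, by contrast, 14 fell and 4 rose, against 5.66% lower and 5.39% higher over all genes. In 8 genes, among them Ddx4, Sycp3, Smc1b and Mael, tc;Sf1ESCs differed from tcESCs and SCLCs were not called against tcESCs, which is 8 of the 14 genes of the list not called, against 4.46% over all such genes. Ddx4, the germ cell RNA helicase, measured 14.2 and 13.8 CPM in tcESCs, 2.82 and 3.02 in the transgenic ESCs and 29.5 and 24.3 in SCLCs (transgenic ESCs over tcESCs, log2 fold change -2.26 ± 0.15, adjusted p = 0.000145). Smc1b, a meiotic cohesin, measured 27.2 and 25.5 CPM in tcESCs, 2.59 and 2.399 in the transgenic ESCs and 56.4 and 23.6 in SCLCs (transgenic ESCs over tcESCs, log2 fold change -3.40 ± 0.43, adjusted p = 0.00154). Mael, of the piRNA pathway, measured 4.59 and 7.32 CPM in tcESCs, 0.386 and 0.473 in the transgenic ESCs and 4.89 and 2.48 in SCLCs (transgenic ESCs over tcESCs, log2 fold change -3.78 ± 0.47, adjusted p = 0.0014). For each the tc;Sf1ESC libraries were the lowest. Without SCLC replicate 2, Ddx4 and Smc1b passed the test as higher in SCLCs, and without SCLC replicate 1 Mael was called lower. Taf7l, an X-linked gene of the transcription machinery of the testis, was on the far side, with 7.59 and 8.92 CPM in tcESCs, 0.425 and 0.473 in the transgenic ESCs and 20.4 and 15.3 in SCLCs (log2 fold change 1.11 ± 0.18, adjusted p = 0.00106), and that call was lost without tcESC replicate 1 or SCLC replicate 1. Dazl, in contrast, was already at the SCLC side, with 169.6 and 189 CPM in tcESCs, 38.99 and 39.7 in the transgenic ESCs and 61.3 and 23.2 in SCLCs, although its call between the ESC lines was lost without tcESC replicate 1 or 2.

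Imprinted genes, which are expressed from 1 parental copy, changed in 20 of 32 cases, 15 higher and 5 lower. In tc;Sf1ESCs 10 fell and 4 rose, against 5.66% lower and 5.39% higher over all genes. H19, the noncoding transcript next to Igf2, measured 23.2 and 31.4 CPM in tcESCs, 0.541 and 0.327 in the transgenic ESCs and 2894 and 4506 in SCLCs (log2 fold change 7.08 ± 0.28, adjusted p = 1.19e-06). Igf2 measured 12.9 and 14.6 CPM in tcESCs, 1.54 and 1.31 in the transgenic ESCs and 543 and 819 in SCLCs (log2 fold change 5.63 ± 0.22, adjusted p = 1.08e-06). Peg10 (chromosome 6) measured 707 and 700.4 CPM in tcESCs, 15.3 and 17.4 in the transgenic ESCs and 2019 and 3322 in SCLCs (log2 fold change 1.92 ± 0.21, adjusted p = 0.000137). The 3 genes share the pattern of a low in tc;Sf1ESCs and the highest level in SCLCs, as do Dlk1, Airn and Sgce, the last next to Peg10. The fall of Dlk1 between the ESC lines was lost without any 1 of the ESC libraries, and that of Airn without tcESC replicate 1 or either tc;Sf1ESC library. Peg3, a zinc-finger gene expressed from the paternal copy, rose in 2 steps, with 4.13 and 3.63 CPM in tcESCs, 61.7 and 63.1 in the transgenic ESCs and 615 and 886 in SCLCs (log2 fold change 7.60 ± 0.22, adjusted p = 3.63e-07). Its neighbour Usp29 and Meg3 also stood part way. Cdkn1c, the cell-cycle inhibitor p57, was called in SCLCs and not in tc;Sf1ESCs, with 3.78 and 4.85 CPM in tcESCs, 4.32 and 4.91 in the transgenic ESCs and 80.1 and 167 in SCLCs (log2 fold change 4.83 ± 0.38, adjusted p = 2.52e-05). Mest, on chromosome 6, fell in 2 steps, with 152 and 152 CPM in tcESCs, 59.7 and 56.4 in the transgenic ESCs and 38.98 and 16.8 in SCLCs, but both steps were lost without any 1 of the ESC libraries. In the DNA methylation list 8 of 14 fell and 2 rose. Uhrf1, which guides DNMT1 to replicating DNA, measured 779 and 769 CPM in tcESCs, 691 and 694 in the transgenic ESCs and 134 and 110.0 in SCLCs (log2 fold change -2.67 ± 0.1, adjusted p = 9.26e-07). Tet1, which oxidises methylcytosine, fell (log2 fold change -3.09 ± 0.22, adjusted p = 1.63e-05), Dnmt3a rose (log2 fold change 2.46 ± 0.16, adjusted p = 8.55e-06), and Dnmt3l was already at the SCLC level in tc;Sf1ESCs, with 245 and 254 CPM in tcESCs, 81.7 and 82.4 in the transgenic ESCs and 106 and 47.97 in SCLCs. The latter call between the ESC lines was lost without any 1 of the 4 ESC libraries.

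Among 38 genes of DNA replication and division 14 fell and none rose. They included genes of S phase such as Mcm2 (log2 fold change -1.65 ± 0.10, adjusted p = 7.27e-06), Ccne1 (log2 fold change -2.0 ± 0.069, adjusted p = 6.78e-07) and Pcna (log2 fold change -1.22 ± 0.062, adjusted p = 3.37e-06), while the mitotic genes Mki67 and Cdk1 were not called. Mki67 measured 325 and 289.8 CPM in tcESCs, 246 and 243 in the transgenic ESCs and 406 and 407 in SCLCs. Among the regulators of the cycle 10 of 21 rose and 3 fell. Ccnd1 (cyclin D1) measured 165 and 157 CPM in tcESCs, 204 and 210.4 in the transgenic ESCs and 5.08 and 5.33 in SCLCs (log2 fold change -4.95 ± 0.079, adjusted p = 5.23e-08). Ccnd2 (cyclin D2), on chromosome 6, went the other way with 2.92 and 3.15 CPM in tcESCs, 4.13 and 4.03 in the transgenic ESCs and 82.01 and 79.7 in SCLCs (log2 fold change 4.73 ± 0.098, adjusted p = 1.17e-07). Cdkn1a (p21) fell (log2 fold change -1.27 ± 0.057, adjusted p = 1.91e-06). In the replication list, as in those of ribosome biogenesis, splicing and oxidative phosphorylation, no gene was called between tc;Sf1ESCs and tcESCs (in ribosome biogenesis at least 1 was with DESeq2, the replicate block, all 8 libraries, no filter on low counts or without SCLC replicate 2), against 5.39% higher and 5.66% lower over all genes tested.

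Ribosome biogenesis genes fell in 19 of 35 cases and rose in none (median -1.03). Bop1 measured 157 and 168 CPM in tcESCs, 118 and 119 in the transgenic ESCs and 26.9 and 32.04 in SCLCs (log2 fold change -2.47 ± 0.095, adjusted p = 1.06e-06). Polr1b, a subunit of RNA polymerase I, measured 212 and 197 CPM in tcESCs, 196 and 193 in the transgenic ESCs and 51.96 and 55.1 in SCLCs (log2 fold change -1.93 ± 0.068, adjusted p = 7.53e-07), and Ncl (nucleolin) fell (log2 fold change -1.14 ± 0.079, adjusted p = 1.28e-05). Both tc;Sf1ESC libraries lay between the groups in 14 of the 19, against 44% over all genes called lower. Of 34 splicing genes 5 fell (14.7%, against 18.2% over all genes), or 8 with library totals alone or without SCLC replicate 2, and none rose. Of 39 mitochondrial genes 7 fell (17.9%, near the share over all genes), with Cycs (cytochrome c, chromosome 6) going from 36.4 and 37.6 CPM to 12.5 and 12.03 CPM, and 2 rose.

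Glycolysis and hypoxia genes rose in 16 of 28 cases and fell in none (median 1.41). Vegfa measured 20.5 and 20.7 CPM in tcESCs, 13.7 and 14.4 in the transgenic ESCs and 215 and 169 in SCLCs (log2 fold change 3.22 ± 0.13, adjusted p = 1.08e-06). Bnip3, a mitophagy receptor induced by low oxygen, measured 6.42 and 8.44 CPM in tcESCs, 11.1 and 8.83 in the transgenic ESCs and 346 and 219.5 in SCLCs (log2 fold change 5.24 ± 0.27, adjusted p = 3.42e-06). Slc2a1, the glucose transporter GLUT1, measured 126 and 129 CPM in tcESCs, 146 and 148 in the transgenic ESCs and 479 and 425 in SCLCs (log2 fold change 1.83 ± 0.074, adjusted p = 1.25e-06). The SCLC libraries were the highest for each, and replicate 1 exceeded replicate 2. Cholesterol synthesis was nearly level, with 5 of 27 higher, or 3 without SCLC replicate 2, and 1 lower.

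Lysosomal genes rose in 24 of 35 cases and fell in 1 (median 1.36). Ctsh (cathepsin H) measured 0.117 and 0.0963 CPM in tcESCs, 0.0772 and 0.182 in the transgenic ESCs and 261 and 362 in SCLCs, at least 2923-fold higher in SCLCs. Ctsl (cathepsin L) measured 224 and 237 CPM in tcESCs, 220.0 and 228 in the transgenic ESCs and 2003 and 2842 in SCLCs (log2 fold change 3.39 ± 0.16, adjusted p = 2.58e-06). Lamp2, a protein of the lysosomal membrane, measured 136 and 138 CPM in tcESCs, 207 and 202 in the transgenic ESCs and 362 and 376 in SCLCs (log2 fold change 1.43 ± 0.058, adjusted p = 1.3e-06). The gene that fell was Tfeb, a regulator of lysosomal genes (log2 fold change -1.20 ± 0.17, adjusted p = 0.000582), a call lost without SCLC replicate 1. tc;Sf1ESCs lay between the groups in 15 of the 25 called genes, against 36% over all genes called higher, and on the tcESC side in 5, but the list's median in tc;Sf1ESCs was 0.23, and only Mcoln1, a calcium channel of the lysosome on chromosome 8, was called between the ESC lines.

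**Figure D3:**
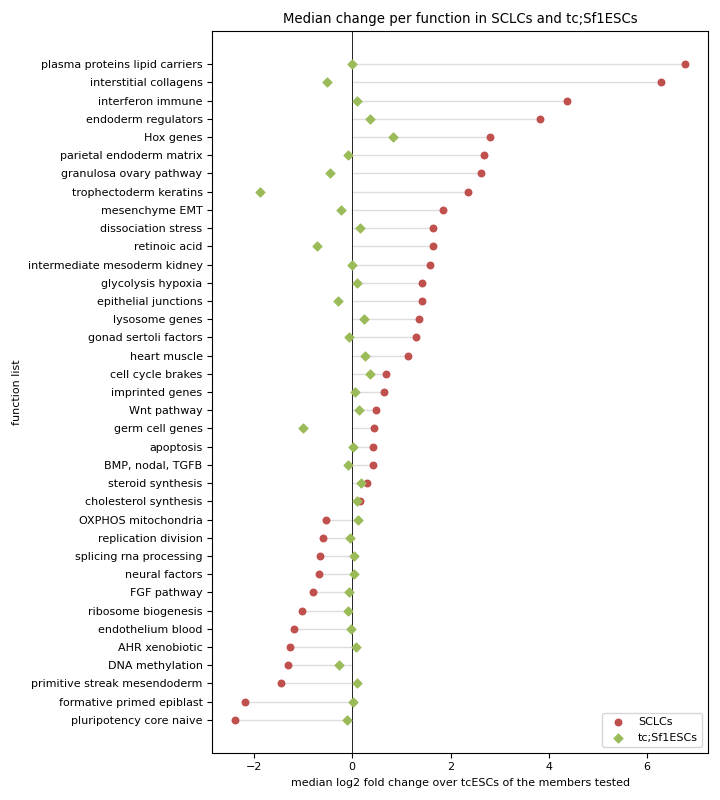
Median log2 fold change over tcESCs of the tested members of each of 37 function lists, in SCLCs (red circles) and in tc;Sf1ESCs (green diamonds). The medians run from -2.39 to 6.78 in SCLCs and from -1.88 (trophectoderm and keratins) to 0.82 (Hox genes) in tc;Sf1ESCs.

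Wnt signalling genes were called in both directions, 12 higher and 11 lower of 33. CHIR99021, which activates this pathway, was in the ESC medium and in the culture of SCLCs. Axin2, a feedback target, measured 72.8 and 68.8 CPM in tcESCs, 150.5 and 152 in the transgenic ESCs and 11 and 13.4 in SCLCs (log2 fold change -2.54 ± 0.10, adjusted p = 1.15e-06). Sp5, another target, measured 20.1 and 19.97 CPM in tcESCs, 75.2 and 71.7 in the transgenic ESCs and 0.649 and 0.349 in SCLCs (log2 fold change -5.33 ± 0.18, adjusted p = 6.88e-07). Notum, a secreted Wnt deacylase, measured 30.7 and 27.8 CPM in tcESCs, 106 and 106 in the transgenic ESCs and 0.802 and 1.08 in SCLCs (log2 fold change -4.94 ± 0.14, adjusted p = 3.03e-07). The tc;Sf1ESC libraries were the highest and the SCLC libraries the lowest for all 3, and 7 of the 23 called genes had tc;Sf1ESCs on the far side, against 6.65% over all called genes. Of ligands and antagonists, Wnt11 rose (log2 fold change 6.05 ± 0.20, adjusted p = 5.58e-07), Wnt5a rose (log2 fold change 4.32 ± 0.36, adjusted p = 3.61e-05), and Dkk1 rose in 2 steps with 0.895 and 1.09 CPM in tcESCs, 5.13 and 4.36 in the transgenic ESCs and 57.4 and 111 in SCLCs. The middle step of Dkk1 was lost without tcESC replicate 1 or 2.

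The FGF list, in contrast, had 5 genes part way of the 20 called, against 4.29% over all called genes, and 3, 2, 3 and 3 without tcESC replicate 1, tcESC replicate 2, tc;Sf1ESC replicate 1 and tc;Sf1ESC replicate 2. Of the receptors, Fgfr4 measured 1.05 and 0.899 CPM in tcESCs, 3.51 and 3.24 in the transgenic ESCs and 53.6 and 77.8 in SCLCs (log2 fold change 6.08 ± 0.25, adjusted p = 1.24e-06). Fgfr3 measured 0.389 and 0.417 CPM in tcESCs, 0.347 and 0.254 in the transgenic ESCs and 34.8 and 37.96 in SCLCs (log2 fold change 6.48 ± 0.18, adjusted p = 3.03e-07). Fgfr2 rose (log2 fold change 4.21 ± 0.18, adjusted p = 1.72e-06), and Fgfr1, on chromosome 8 and the main receptor of ESCs, fell (log2 fold change -1.33 ± 0.064, adjusted p = 2.59e-06). Fgf4, the ligand of ESCs, fell (log2 fold change -5.25 ± 0.46, adjusted p = 4.35e-05), and Fgf17 fell in 2 steps, with 8.29 and 9.66 CPM in tcESCs, 0.386 and 0.509 in the transgenic ESCs and 0.0764 and 0.244 in SCLCs. The last step of Fgf17 was lost without any 1 of the ESC libraries or SCLC replicate 1, and the middle step of Fgfr4 without tcESC replicate 2. The targets Etv5 (log2 fold change -2.74 ± 0.29, adjusted p = 0.000112) and Spry2 (log2 fold change -1.40 ± 0.12, adjusted p = 3.53e-05) fell. PD0325901 in the ESC medium blocks MEK, a kinase of this pathway.

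In the list of BMP, nodal and TGFB signalling 11 of 34 rose (32.4%, against 24.8% over all genes) and 5 fell (14.7%, against 18.2%), or 8 without SCLC replicate 2. Bmp6 rose (log2 fold change 4.76 ± 0.20, adjusted p = 1.46e-06), and the targets Id1 and Id2 rose (log2 fold change 2.20 ± 0.24, adjusted p = 0.000137) and (log2 fold change 1.89 ± 0.21, adjusted p = 0.000129). Bmp7, which was also added to the culture as protein, measured 12.03 and 11.4 CPM in tcESCs, 34.4 and 33.2 in the transgenic ESCs and 13.2 and 5.12 in SCLCs and was higher in tc;Sf1ESCs than in either other group (transgenic ESCs over tcESCs, log2 fold change 1.53 ± 0.35, adjusted p = 0.0159). Bmp4, Tgfb1, Tgfb2, Inhbb and Lefty1 likewise differed in tc;Sf1ESCs while SCLCs were not called against tcESCs, so that 6 of the 18 genes not called in this list stood apart, against 4.46% over all such genes, and 2, 3, 3 and 2 did without tcESC replicate 1, tcESC replicate 2, tc;Sf1ESC replicate 1 and tc;Sf1ESC replicate 2. The call between the ESC lines was lost without at least 1 ESC library for all of them but Inhbb, and without 1 SCLC library Bmp7, Lefty1, Tgfb1 and Inhbb were called lower in SCLCs than in tcESCs. In the retinoic acid list 11 of 20 rose and 3 fell. Cyp26a1, which degrades retinoic acid, measured 0.506 and 0.578 CPM in tcESCs, 0.154 and 0.145 in the transgenic ESCs and 169.8 and 147 in SCLCs (log2 fold change 8.17 ± 0.14, adjusted p = 6.28e-08). Its dip in tc;Sf1ESCs was lost with all 8 libraries in the fit and without tcESC replicate 2 or either tc;Sf1ESC library. Stra6, the receptor for retinol-binding protein, had at most 2 counts in each ESC library and rose to 51.05 and 43.9 CPM, at least 446-fold, and Rarb, a receptor and target, rose (log2 fold change 5.57 ± 0.36, adjusted p = 9.87e-06). TTNPB, an agonist of these receptors, was given in the early steps of the culture.

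Interferon response and antigen presentation genes rose in 26 of 31 cases and fell in 1, with a median of 4.36. Isg15, a ubiquitin-like protein, measured 0 and 0.0642 CPM in tcESCs, 0.0386 and 0.109 in the transgenic ESCs and 75.6 and 78.6 in SCLCs, at least 724-fold. Ifit1, which binds foreign RNA, had at most 1 count in each ESC library and 93.9 and 79.2 CPM in SCLCs, at least 812-fold. Irf7 measured 0.272 and 0.353 CPM in tcESCs, 0.309 and 0.545 in the transgenic ESCs and 155 and 142 in SCLCs (log2 fold change 8.86 ± 0.17, adjusted p = 1e-07). Ifit3 and Rsad2 rose to 64.8 and 49.6 CPM and 94.8 and 178 CPM. B2m, the light chain of class I molecules, measured 20.4 and 20.6 CPM in tcESCs, 17.5 and 18.03 in the transgenic ESCs and 331 and 307 in SCLCs (log2 fold change 3.96 ± 0.073, adjusted p = 8.74e-08). SCLC libraries were above all ESC libraries in each of these genes. The Ifit genes and the class I heavy chains H2-K1, H2-D1 and H2-T23 have close relatives, so their single levels are less certain than the direction shared by the list. tc;Sf1ESCs stood part way in Tap2 and Ifi27, and on the far side in Oasl2. The middle step of Ifi27 was lost without tcESC replicate 1 or 2. Nlrc5 (chromosome 8) was part way too, but its call between the ESC lines was lost in 11 of 15 alternatives, among them RLE size factors, DESeq2 and the omission of any 1 ESC library.

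Interferon-induced genes are known to share the interferon-stimulated response element. Its core letters GAAANNGAAA, searched on both strands of the 250 bases before each start in the RefSeq promoters of build GRCm38.p6, were found in 10 of the 26 genes of the list with a promoter (38.5%), including Ifitm2, the 1 gene of the list that was called lower (a call lost without tcESC replicate 1, tcESC replicate 2 or SCLC replicate 2), and in 2.98% of all 32851 such windows. The motif was chosen after the values of the list had been seen. The windows of Isg15, Ifit1, Ifit3 and Rsad2 follow, since these genes had the motif and rose from under 1 CPM, written 5′ to 3′ on the strand of the gene in lower case, with the motif in capitals. They lie at chr4:156200819-156201068 (minus strand), chr19:34640639-34640888 (plus strand), chr19:34583279-34583528 (plus strand) and chr12:26456453-26456702 (minus strand).
Isg15: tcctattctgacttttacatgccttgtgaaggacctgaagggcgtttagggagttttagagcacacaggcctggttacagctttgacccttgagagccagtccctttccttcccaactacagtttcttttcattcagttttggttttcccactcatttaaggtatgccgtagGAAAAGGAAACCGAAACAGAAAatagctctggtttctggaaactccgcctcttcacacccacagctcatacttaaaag
Ifit1: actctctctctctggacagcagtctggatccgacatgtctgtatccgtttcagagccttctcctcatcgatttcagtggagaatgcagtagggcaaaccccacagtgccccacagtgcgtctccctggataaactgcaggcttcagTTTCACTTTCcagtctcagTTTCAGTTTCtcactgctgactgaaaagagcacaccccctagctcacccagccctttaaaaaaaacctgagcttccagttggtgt
Ifit3: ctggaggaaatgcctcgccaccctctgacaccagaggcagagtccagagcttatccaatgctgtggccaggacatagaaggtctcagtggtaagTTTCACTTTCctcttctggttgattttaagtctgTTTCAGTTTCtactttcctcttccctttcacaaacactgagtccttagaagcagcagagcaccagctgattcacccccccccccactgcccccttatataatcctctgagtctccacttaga
Rsad2: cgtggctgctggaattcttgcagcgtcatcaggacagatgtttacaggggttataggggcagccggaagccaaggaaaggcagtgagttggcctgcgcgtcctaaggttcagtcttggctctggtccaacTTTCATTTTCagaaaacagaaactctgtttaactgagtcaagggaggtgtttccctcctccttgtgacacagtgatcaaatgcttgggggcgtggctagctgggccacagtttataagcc
In Isg15 the matches overlap into 1 run, and in the other 3 genes each match is on the strand opposite to the gene and is shown as its reverse complement. A match is a description of letters and not of a bound site. The 5 other motifs searched, CAAGGTCA (NR5A), a GATA motif, CAAAGTCCA (HNF4), ATGCNAAT (octamer) and TCACGTGA (E-box), were not compared between called genes, because only 72.3% of the genes called higher and 67.3% of those called lower had a promoter in the table. In the plasma protein list, where 23 of 27 genes had one, the NR5A letters were found in 1 (F10) and the HNF4 and GATA letters in none. In 2 other lists, picked after the shares were seen, larger shares were found. The E-box letters were in 5 of 26 lysosomal genes (19.2%, against 0.785% of all windows). The octamer letters were in 4 of 12 trophectoderm and keratin genes (33.3%, against 2.86%).

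Immediate early genes, which rise in cells that are dissociated and sorted, were among the called genes. In the list of dissociation stress 13 of 22 rose and 6 fell, so the list moved in both directions. Those that fell were Hsp90aa1, Hsph1, Nr4a1, Myc, Hspa8 and Socs3. The summed level of the list fell from 9232 and 8906 CPM in tcESCs to 3941 and 3832 CPM in SCLCs. Fos measured 4.44 and 3.85 CPM in tcESCs, 2.43 and 1.64 in the transgenic ESCs and 67.4 and 55.7 in SCLCs (log2 fold change 3.90 ± 0.18, adjusted p = 2.19e-06). Egr1 measured 0.817 and 0.803 CPM in tcESCs, 0.502 and 0.327 in the transgenic ESCs and 110.0 and 93.8 in SCLCs (log2 fold change 6.97 ± 0.16, adjusted p = 1.59e-07). Jun measured 5.18 and 5.39 CPM in tcESCs, 10.6 and 9.78 in the transgenic ESCs and 119 and 118 in SCLCs (log2 fold change 4.48 ± 0.088, adjusted p = 1e-07). SCLCs were collected by sorting, and its part in these values was not tested. The chaperone Hspa8 fell (log2 fold change -1.36 ± 0.06, adjusted p = 1.71e-06). Of 30 apoptosis genes 10 rose (33.3%, against 24.8% over all genes) and 4 fell (13.3%, against 18.2%), with Casp8 higher (log2 fold change 4.08 ± 0.16, adjusted p = 1.2e-06) and Bid lower (log2 fold change -2.64 ± 0.066, adjusted p = 2.07e-07).

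Genes of the aryl hydrocarbon receptor and of detoxification fell in 10 of 17 cases and rose in 1. Cyp1a1, the receptor's main target, measured 32.9 and 33.8 CPM in tcESCs, 83.9 and 89.6 in the transgenic ESCs and 0.0382 and 0.105 in SCLCs, a fall of at least 305-fold from tcESCs to SCLCs, with tc;Sf1ESCs on the far side (transgenic ESCs over tcESCs, log2 fold change 1.38 ± 0.088, adjusted p = 0.000129). Ahrr, the repressor of the receptor, measured 5.41 and 6.099 CPM in tcESCs, 19.7 and 20.1 in the transgenic ESCs and 0.955 and 0.802 in SCLCs (log2 fold change -2.71 ± 0.18, adjusted p = 1.15e-05). Nqo1, a quinone reductase on chromosome 8, measured 185 and 194 CPM in tcESCs, 157 and 159 in the transgenic ESCs and 5.15 and 5.23 in SCLCs (log2 fold change -5.19 ± 0.075, adjusted p = 4.6e-08). Both ESC lines were above SCLCs in these genes. Cyp1b1 and the glutathione transferases Gstm1 and Gstm2 were higher in tc;Sf1ESCs and not called between SCLCs and tcESCs. For Cyp1b1 the first call was lost without tcESC replicate 1, and that against SCLCs without SCLC replicate 2, and for Gstm2 that against SCLCs was lost without tc;Sf1ESC replicate 2 or SCLC replicate 1.

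**Figure D4:**
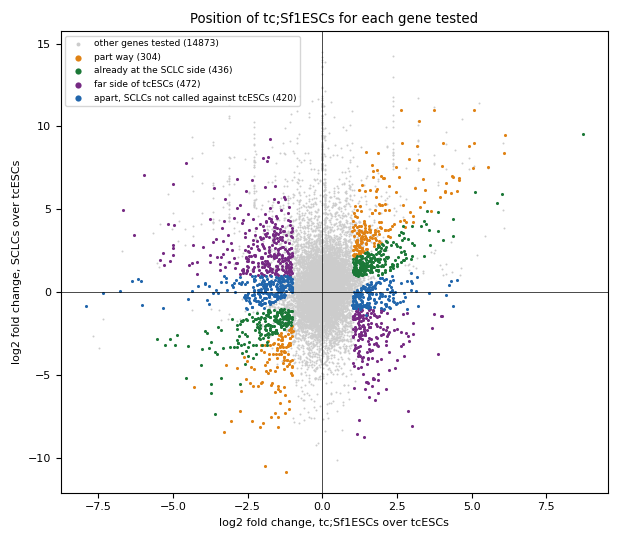
Log2 fold change of SCLCs over tcESCs (vertical axis) against that of tc;Sf1ESCs over tcESCs (horizontal axis) for the 16505 genes tested, coloured by the position of tc;Sf1ESCs. Both axes use the tcESC libraries, so the axes are not independent. 304 genes are part way, 436 already at the SCLC side, 472 on the far side of tcESCs and 420 apart.

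Over all genes, tc;Sf1ESCs stood mostly with tcESCs. Between the ESC lines 1823 genes were called, 889 higher (5.39%) and 934 lower (5.66%) in tc;Sf1ESCs, against 6952 (42.1%) for SCLCs and tc;Sf1ESCs. Of the genes called between SCLCs and tcESCs, 3355 of the 4096 higher and 2487 of the 2997 lower were not called between the ESC lines. The median log2 fold change of the genes called higher in SCLCs was 2.18, of which tc;Sf1ESCs showed 0.081, and that of the genes called lower was -1.74, of which they showed -0.12. tc;Sf1ESCs stood part way, called against both groups and lying between them, in 304 genes (4.29%). They were already at the SCLC side, called against tcESCs and not against SCLCs, in 436 (6.15%). They were past SCLCs, also called against both groups, in 27 genes called higher and 12 called lower. They were on the far side, called against tcESCs in the direction opposite to SCLCs, in 472 (6.65%). In a further 420 of the 9412 genes not called between SCLCs and tcESCs (4.46%), tc;Sf1ESCs differed from both, 181 higher and 239 lower. These counts rest on the 2 libraries of each ESC line and on a spread estimated jointly with the SCLC libraries, the pair that varied most. A call lost without 1 ESC library therefore need not mean that the ESC libraries disagreed. Without tcESC replicate 1, tcESC replicate 2, tc;Sf1ESC replicate 1 or tc;Sf1ESC replicate 2, the number called between the ESC lines was 1084, 1077, 1146 and 1162, that part way 173, 184, 186 and 189, and that on the far side 274, 258, 290 and 298. The number apart was 261, 270, 278 and 273, and the number already at the SCLC side was 274, 266 and 281 without the first 3 of these libraries.

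By the order of the libraries alone, both tc;Sf1ESC libraries lay strictly between the groups in 1476 of the 4096 genes called higher and in 1320 of the 2997 called lower, and beyond tcESCs, away from SCLCs, in 1243 and 971. The libraries of pluripotency, Hox, ribosome biogenesis and lysosomal genes lay between more often than beyond (15 against 5, 12 against 2, 14 against 1 and 15 against 5), whereas those of trophectoderm, mesenchyme, junction and granulosa genes lay beyond more often than between (7 against 0, 7 against 1, 10 against 7 and 6 against 2). These differences between lists were not tested.

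Of the genes part way with a mean of at least 5 CPM, those with the largest changes between the ESC lines included Cdc42ep1, Trim30d, Peg3 and Nr5a1. Cdc42ep1, an effector of CDC42, measured 0.895 and 0.899 CPM in tcESCs, 16.5 and 14.6 in the transgenic ESCs and 61.1 and 58.01 in SCLCs (transgenic ESCs over tcESCs, log2 fold change 4.11 ± 0.14, adjusted p = 2.32e-05). Trim30d measured 0.0778 and 0.257 CPM in tcESCs, 4.21 and 4.33 in the transgenic ESCs and 23.4 and 18.8 in SCLCs and has close relatives on chromosome 7, so its level is uncertain. Already at the SCLC side were Kdm5c, Mogat2, Bglap3, Gng2 and Hal. Kdm5c, an X-linked demethylase of histone H3, measured 4.83 and 4.37 CPM in tcESCs, 261 and 263 in the transgenic ESCs and 186 and 195 in SCLCs (transgenic ESCs over tcESCs, log2 fold change 5.84 ± 0.083, adjusted p = 5.61e-07), so that tcESCs stood apart from the other 4 libraries. Mogat2, an enzyme of triglyceride synthesis, measured 0.545 and 0.417 CPM in tcESCs, 10.04 and 9.74 in the transgenic ESCs and 9.28 and 10.98 in SCLCs (transgenic ESCs over tcESCs, log2 fold change 4.36 ± 0.22, adjusted p = 5.81e-05). Hal, histidine ammonia-lyase, fell to the same level in both, with 23.7 and 22.98 CPM in tcESCs, 2.63 and 2.799 in the transgenic ESCs and 2.02 and 2.72 in SCLCs (transgenic ESCs over tcESCs, log2 fold change -3.10 ± 0.17, adjusted p = 7.59e-05).

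On the far side, the 6 genes with the largest change between the ESC lines were H19, Peg10, Krt18, Nxf7, Sgce and Taf7l, which all fell in tc;Sf1ESCs and rose in SCLCs. Nxf7, an X-linked relative of the RNA export factor, measured 0.895 and 1.86 CPM in tcESCs, 0 and 0.109 in the transgenic ESCs and 285 and 340.0 in SCLCs (log2 fold change 7.78 ± 0.26, adjusted p = 6.16e-07). Trpm1, a cation channel, showed the reverse, with 34.6 and 35.02 CPM in tcESCs, 253 and 252 in the transgenic ESCs and 0.229 and 0.244 in SCLCs (transgenic ESCs over tcESCs, log2 fold change 2.86 ± 0.062, adjusted p = 5.16e-06), and was among the largest decreases in SCLCs. Among genes apart from both groups, Rapsn, which clusters acetylcholine receptors, measured 1.25 and 0.995 CPM in tcESCs, 20.04 and 19.7 in the transgenic ESCs and 1.07 and 0.906 in SCLCs (transgenic ESCs over tcESCs, log2 fold change 4.15 ± 0.18, adjusted p = 4.12e-05), and Cyp2b23, of a family of close copies, measured 1.17 and 1.61 CPM in tcESCs, 29.7 and 28.6 in the transgenic ESCs and 1.34 and 0.244 in SCLCs. In both the SCLC and tcESC libraries overlapped, and Cyp2b23 was called lower in SCLCs without SCLC replicate 1.

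**Figure D5:**
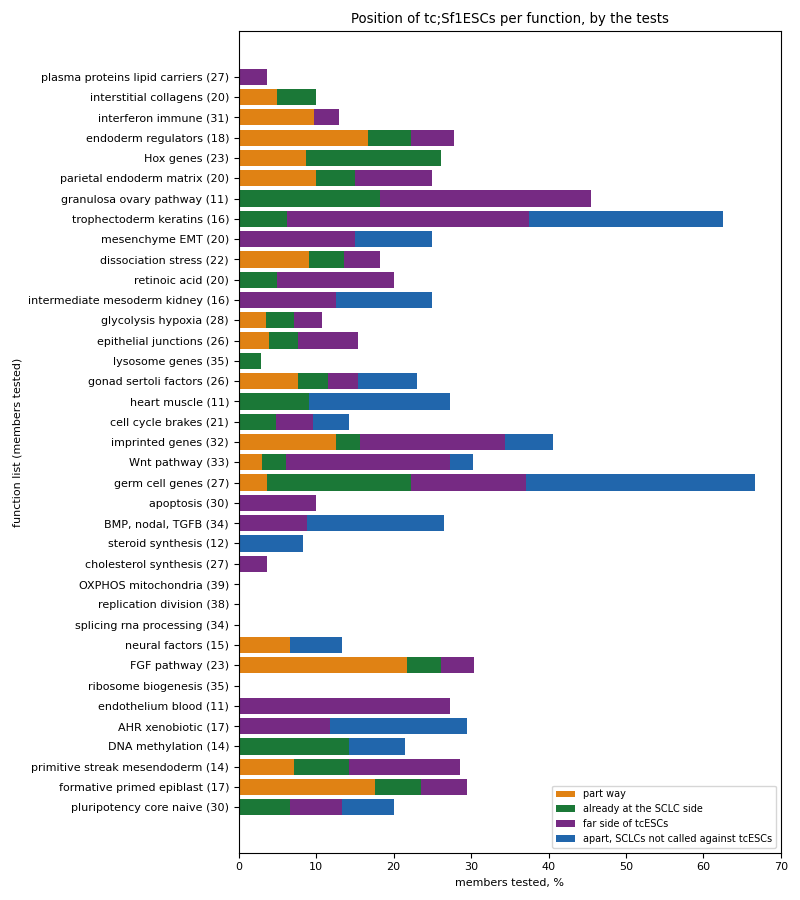
Share of the tested members of each of 37 function lists, in percent, in which tc;Sf1ESCs were part way (orange), already at the SCLC side (green), on the far side of tcESCs (purple) or apart while SCLCs were not called against tcESCs (blue). Germ cell genes and trophectoderm and keratin genes have the longest bars, and the lists of replication, ribosome biogenesis, splicing and mitochondria have none.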

How the data were processed

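RNA was measured by strand-specific, paired-end poly-A sequencing. The authors deposited raw counts per gene, 1 file per library. Reads were filtered with Trim Galore and aligned to GRCm38 with STAR (2.4.0 in the submitters' processing notes, which also name Picard, HTSeq and DESeq2). The counting settings are not given in the sources used here. Groups were taken from the sample titles.

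All 6 libraries of the 3 groups entered 1 fit with edgeR 4.0.16 (R 4.3.3; TMM normalization, quasi-likelihood test, Benjamini-Hochberg adjustment over the 16505 genes tested). Standard errors are the log2 fold change over the root of the F statistic. Folds against a group with at most 3 counts per library are given as bounds computed at 3 counts. The fit was tested on simulated data. Alternatives included other normalizations and filters, DESeq2 1.42.0, stricter thresholds and leaving out each library. The 2 libraries of the other cell type in the series entered 1 alternative fit only.

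The comparison, gene lists and tests were chosen with earlier results of these data known. Genes named were the lead genes of each list, its largest change in each direction, the 10 largest changes overall in each direction and the 6 largest for each position of tc;Sf1ESCs. Other genes, and the interferon motif, were chosen after their values were seen. A few genes that the rule selects are not reported here.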

Additional observations from a re-analysis of the deposited data

How the results depend on the processing

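The number of genes called between SCLCs and tcESCs ran from 5347 to 8509 over the alternatives, with 56.2% to 59.8% of them higher, and DESeq2 called 6701, of which 6686 were shared. The number called between SCLCs and tc;Sf1ESCs ran from 5300 to 8601. Both upper ends came from the fit with no filter on low counts. The weight of the spread common to all genes (prior degrees of freedom) was 2310 there, against 3.98 in the main fit. A gene's own spread thus hardly counted in that fit, also where it called Wt1 and Cyp11a1. The median log2 fold change changed sign in 3 of the 37 lists, for germ cell genes from 0.436 to -0.0683 without SCLC replicate 1, for cholesterol synthesis from 0.16 to -0.0962 without SCLC replicate 2, and for the FGF list from -0.798 to 0.361 without the genes on chromosomes 6, 8, 11 and 16. The number of genes called moved by more than 1.5 times in 18 of 629 list counts, and of 6294 values of named genes none reversed, 208 lost their call and 16 gained one.

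The counts that place tc;Sf1ESCs were less stable. A test against a 2-fold change called 533 genes between the ESC lines, with 67 part way, 149 already at the SCLC side, 118 on the far side and 143 apart. An adjusted p under 0.01 left 195 part way and 302 on the far side. These tests are stricter by construction. Leaving out 1 library gave 1077 to 2198 genes called between the ESC lines, 173 to 372 part way, 266 to 505 already at the SCLC side, 258 to 640 on the far side and 261 to 481 apart. The cause was not tested.

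The deviations of same-numbered libraries from their group means correlated at -0.0194, -0.0075 and 0.00414 over the 3 pairs of groups. The labels do not say whether these libraries were prepared together, and values near 0 cannot exclude it. With the replicate number as a block 7083 genes were called between SCLCs and tcESCs, of which 7038 were shared with the fit without the block.

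With 2 libraries per group the spread rests on few degrees of freedom, and a difference under 3 counts per library was not detectable.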
